A study of Mus musculus with 2 samples.

Results

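The regions described are 3456 strong DNase I hypersensitive peaks of the mouse embryonic face that were found in 1 library and not in its replicate. They are the peaks of replicate 2 on chromosomes 1 to 19 with a strength of 60 or more over which replicate 1 had no peak and no hotspot, not even by 1 bp. The members were chosen by the strength in replicate 2 and by the absence of calls in replicate 1, so these values are given as a description and support nothing. Of 213624 autosomal peaks in replicate 2, 64223 were strong, and 3456 of those (5.38%) met the rule.

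DNase-seq was run on facial prominences dissected from B6NCrl mice on embryonic day 11.5, and tissue of both sexes was pooled. The study holds 1 group of 2 libraries, labelled biological replicates 1 and 2, from separate biosamples that carry 1 donor identifier. The labels list the same Illumina instruments for both and 1 further, older HiSeq model for replicate 2. Strength is the authors' whole-number value per 150 bp peak. No source used here states its scale. Its median over autosomal peaks was 16 in replicate 1 and 42 in replicate 2. The read depth of both libraries is unknown. Replicate 1 had 205599 autosomal peaks and 58.0 Mb of hotspots (longer enriched regions), and replicate 2 had 213624 peaks and 65.2 Mb. Each library entered the rule once, so the member set has no replicate and no test was made. Intervals below are exact 95% binomial intervals or order-statistic intervals of a median, and they cover counting error only, with peaks treated as independent.

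DNase I cuts DNA where nucleosomes are displaced, so hypersensitive sites mark promoters, enhancers and insulators. Promoters of broadly used genes and sites bound by the insulator protein CTCF are open in most tissues, whereas enhancers are often open in few cell types. The facial prominences consist largely of neural crest-derived mesenchyme covered by epithelium, with vessels, muscle precursors, nerves and blood cells among it. All 48 genes listed for facial mesenchyme and neural crest had a promoter peak in both libraries. So did 20 of 23 heart genes and 10 of 28 genes of liver, pancreas and gut in each library, and 33 and 36 of 36 neuronal genes in replicates 1 and 2, so a promoter peak does not set the face apart from every other tissue.

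Sequences of 7 members are shown as examples of the classes described below: strong members, clear of exons, nearest to a gene of each of 5 tissue lists, at a promoter and between genes. For epithelium, muscle and neuron, 1 stronger member was passed over because it overlapped an exon. The sequences are the plus strand of mm10 (GRCm38.p6), and capitals mark the E-boxes CAGCTG and either strand of CATCTG, the hexamers read by basic helix-loop-helix proteins such as Twist1 and MyoD. They lie at chr11:115956636-115956785 (Itgb4, an integrin of epithelial hemidesmosomes, 18 kb from a TSS), chr16:95371876-95372025 (an intron of Erg, an endothelial ETS factor), chr1:78181976-78182125 (Pax3, a regulator of muscle precursors and neural crest), chr3:35028036-35028185 (378 kb from Sox2, a neural progenitor factor), chr16:92927776-92927925 (102 kb from Runx1, a regulator of blood stem cells), chr2:74691716-74691865 (the Hoxd10 promoter) and chr10:37616516-37616665 (478 kb from Marcks, a substrate of protein kinase C).
Itgb4: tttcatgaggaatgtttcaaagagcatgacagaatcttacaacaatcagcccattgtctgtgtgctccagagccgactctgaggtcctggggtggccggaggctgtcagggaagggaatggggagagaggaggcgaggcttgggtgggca
Erg: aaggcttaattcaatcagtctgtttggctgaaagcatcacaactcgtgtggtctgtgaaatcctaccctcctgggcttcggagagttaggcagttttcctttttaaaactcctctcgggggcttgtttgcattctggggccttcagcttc
Pax3: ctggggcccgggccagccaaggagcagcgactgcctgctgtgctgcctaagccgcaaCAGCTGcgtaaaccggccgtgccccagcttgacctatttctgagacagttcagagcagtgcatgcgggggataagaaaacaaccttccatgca
Sox2: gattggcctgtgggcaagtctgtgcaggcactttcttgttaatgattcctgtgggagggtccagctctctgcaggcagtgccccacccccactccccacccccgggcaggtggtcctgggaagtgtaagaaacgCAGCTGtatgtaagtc
Runx1: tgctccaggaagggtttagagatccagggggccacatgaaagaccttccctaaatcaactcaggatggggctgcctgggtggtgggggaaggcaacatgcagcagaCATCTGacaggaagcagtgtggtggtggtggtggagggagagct
Hoxd10: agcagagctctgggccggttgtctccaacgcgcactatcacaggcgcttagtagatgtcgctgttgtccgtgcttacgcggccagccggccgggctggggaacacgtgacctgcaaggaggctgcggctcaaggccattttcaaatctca
Marcks: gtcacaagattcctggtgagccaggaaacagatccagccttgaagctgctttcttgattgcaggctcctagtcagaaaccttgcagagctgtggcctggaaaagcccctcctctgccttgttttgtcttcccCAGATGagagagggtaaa
Of these 7, the peaks near Pax3, Sox2, Runx1 and Marcks hold 1 marked E-box each, and the others hold none.

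Members lay close to the threshold. Their median strength was 65, against 85 for the 60767 strong peaks with a replicate 1 call. The share of strong peaks without a call was 18.9% at strengths of 60 to 64, 12.3% at 65 to 69, 7.54% at 70 to 74, 4.58% at 75 to 79, 1.96% at 80 to 89 and 0.479% at 90 to 99. At 100 or more, 6 of 18874 peaks (0.0318%) were members. Just inside the threshold, 362 members had a strength of 60, with 12.4% at promoters and a median of 21.5 kb to a TSS. Just outside it, 438 peaks of strength 59 met the rest of the rule, with 11.4% at promoters and a median of 16.7 kb. Because class and sequence change with strength, the peaks with a call are given below also with their strengths weighted to those of the members ("at the members' strengths").

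**Figure D1:**
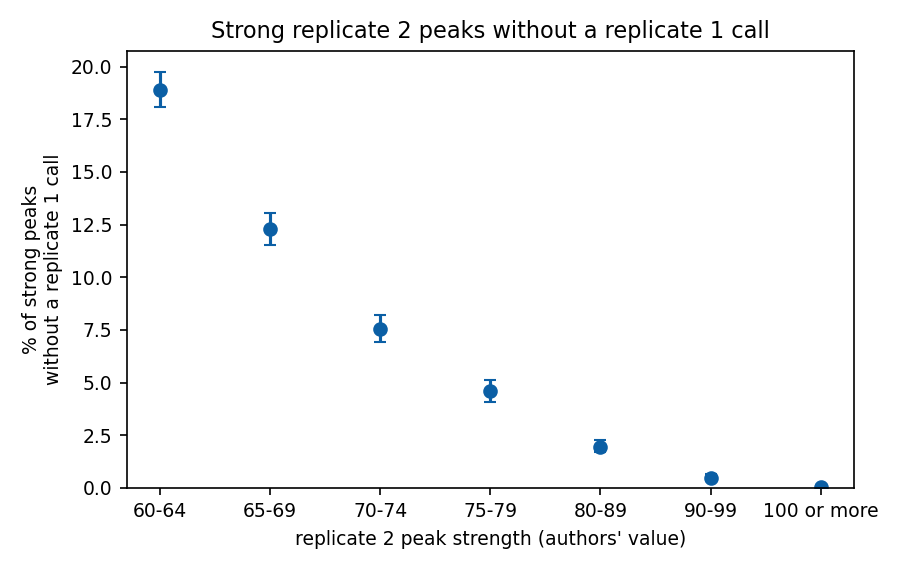
Percent of strong autosomal replicate 2 peaks without a replicate 1 peak or hotspot, by class of replicate 2 strength. Points are shares and bars exact 95% binomial intervals; the share falls from 18.9% at strengths of 60 to 64 to 0.0318% at 100 or more.

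The 10 strongest members were nearest to 10 different genes. Hoxd10, a homeobox gene that patterns limb and trunk, had the second highest strength, 108, at its promoter, 134 bp from a TSS, with the nearest replicate 1 hotspot 5091 bp away and no replicate 1 promoter peak. The highest strength, 112, was at chr18:60664076-60664225, 4.01 kb from a TSS of Synpo, which encodes an actin-associated protein. A peak of strength 105 lay in an intron of the focal adhesion gene Tns3, and one of 103 lay 478 kb from Marcks but only 43 bp from a replicate 1 hotspot. Dapl1 was nearest to an intergenic member of strength 102, at 59.7 kb. The promoter of Cdkn2a, which encodes inhibitors of the cell cycle, held a member of strength 101, 65 bp from a replicate 1 hotspot. The remaining 4 of the 10 strongest were in an intron of the ephrin receptor gene Ephb2 (99), 171 kb from the ribosome biogenesis gene Krr1 (98), in an intron of E130114P18Rik (97) and at the promoter of the homeobox gene En1 (97). All but Hoxd10 of these 10 genes had a promoter peak in replicate 1, with strengths of 24 to 105.

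Most members lay away from promoters. The centre of 436 members (12.6%, 11.5 to 13.8) was within 1 kb of a TSS of a protein-coding gene, against 41.2% of strong peaks with a call and 26.6% of those at the members' strengths. Introns held 1509 members (43.7%, 42.0 to 45.3), against 30.8% at the members' strengths. Intergenic sequence held 1407 (40.7%, 39.1 to 42.4), against 39.3%. Exons held 104 (3.01%), against 3.31%, and 52 of these were over coding sequence. In the other direction, 1018 of 62721 replicate 1 peaks of equal rank (strength 27 or more; 1.62%) had no call in replicate 2. These replicate 1 peaks were at promoters in 27% of cases and over exons in 9.43%. Promoter shares depended on which TSSs were used: with TSSs of protein-coding transcripts only, the members had 10.2% and the peaks at their strengths 23.9%.

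**Figure D2:**
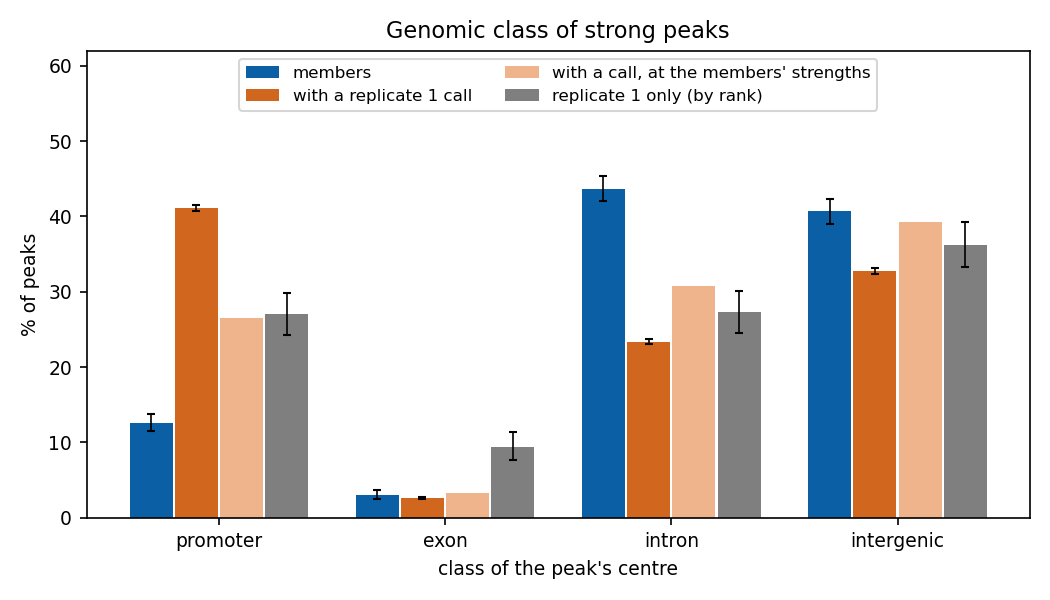
Percent of peaks in each genomic class for the 3456 members, the strong peaks with a replicate 1 call, the same at the members' strengths, and strong replicate 1 peaks without a replicate 2 call. Black bars are exact 95% binomial intervals; members have the lowest promoter share (12.6%) and the highest intron share (43.7%) of these sets.

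The median distance from a member's centre to the nearest protein-coding TSS was 18.5 kb (17.2 to 19.9), with quartiles of 4.45 and 63.0 kb. Strong peaks with a call had a median of 3.24 kb, or 9.90 kb at the members' strengths. Of the members, 24.6% were 1 to 10 kb from a TSS, 32.9% were 10 to 50 kb away and 18% were over 100 kb away. The contrast was smaller among distal peaks (over 1 kb from a TSS), where the medians were 24.5 kb for members and 22.9 kb at their strengths. Absolute distances moved with the TSS set. With 1 TSS per gene the medians were 40.9 kb for members and 22.0 kb at their strengths, and with the basic annotation 30.8 and 17.3 kb.

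**Figure D3:**
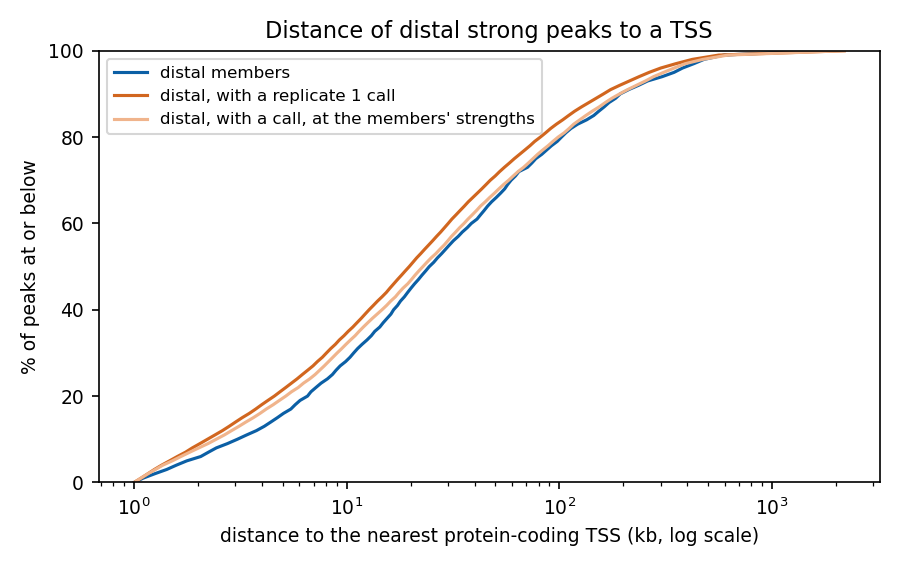
Cumulative percent of distal strong peaks by distance to the nearest protein-coding TSS (kb, log scale). Distal members have a median of 24.5 kb, distal peaks with a call 19.7 kb, and those at the members' strengths 22.9 kb.

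Replicate 2 hotspots around the members were shorter, and less often at the highest confidence, than those of strong peaks with a call. The median length of the hotspot that holds a member was 359 bp, against 472 bp at the members' strengths, and 81.5% of members were the only peak of their hotspot, against 60.03%. The authors' −log10 q of that hotspot was at its ceiling of 100 for 70.9% of members and for 90.7% of peaks at their strengths. It was under 5 for 565 members (16.3%) and for 4.94% at their strengths. Among all strong peaks in hotspots under 5, 35.6% were members, against 4.0% of those in hotspots at the ceiling. Members under 5 had a median distance to a TSS of 10.6 kb and a GC content of 56.7%, against 21.3 kb and 52.7% at the ceiling. Strong replicate 1 peaks without a replicate 2 call lay under 5 more often (49.5%) and at the ceiling less often (40.96%), in hotspots with a median length of 745 bp. The part that hotspot confidence plays in the absence of replicate 1 calls was not tested.

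Replicate 1 often had calls nearby. The median gap from a member to the nearest replicate 1 hotspot was 3014 bp (2735 to 3315). It was at most 150 bp for 436 members (12.6%), over 1 kb for 66.4% and over 10 kb for 22.3%. The replicate 2 hotspot of 556 members (16.1%) touched a replicate 1 call outside the member itself. A separate replicate 1 peak lay within 10 kb of 77.3% of members, against 84.5% of strong peaks with a call at the members' strengths. For 90.1% of the 3020 distal members the gene with the nearest TSS had a promoter peak in replicate 1, against 88.4% at their strengths. Of 395 genes with a member at a promoter, 339 (85.8%) also had a replicate 1 peak within 1 kb of any of their TSSs. That TSS need not be the one next to the member. The share over all protein-coding genes on chromosomes 1 to 19 was 69.9%. That share takes in genes without a strong replicate 2 promoter peak, so it is not a like background for the 395. The share over genes with such a peak was not computed.

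Median GC content was 53.3%, against 52.7% at the members' strengths. The median CpG observed/expected ratio was lower, 0.283 (0.275 to 0.293) against 0.340. Among distal peaks the ratios were close, 0.263 for members and 0.269 at their strengths. Distal members had a median GC content of 52.7%, against 50.7%. Soft-masked repeats differed little: 2.11% of members were over 50% soft-masked, against 2.68%, and 55.9% had no soft-masked base, against 57.0%. A word of 36 bases with an exact copy elsewhere on chromosomes 1 to 19, X or Y was found in 2.52% of members, against 3.8%. In 0 of 3456 members, which allows a share of up to 0.0868% (3 counts of the total), were over 50% of such words copied.

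E-boxes were more frequent in members than in strong peaks with a call. CAGCTG was in 781 members (22.6%, 21.2 to 24), against 14.5% at the members' strengths. CATCTG on either strand was in 850 (24.6%, 23.2 to 26.1), against 17.2%. Among distal peaks with both strength and GC content weighted to the members, the shares were 23.6% against 16.8% for the first and 26.2% against 19.2% for the second. Either E-box was in 42.3% of members (40.6 to 43.9), against 29.2%, and 10.5% held more than 1, against 5.25%. Their place within the peak was alike: 42.5% of the matches in members and 42.2% of those in peaks with a call fell in the central 50 bp. Of the other 8 E-box spellings, CACCTG was in 11.2% against 11.3%, CAACTG in 7.52% against 7.43%, and CACATG in 12.5% against 9.97%. Replicate 1 peaks without a replicate 2 call held CAGCTG in 8.94% and CATCTG in 10.1% of cases.

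The CTCF motif, written as CCA, AG and GGC with 2 bases between each, was rare in members. It was in 93 members (2.69%, 2.18 to 3.29), against 12.4% of peaks with a call at their strengths. Replicate 1 peaks without a replicate 2 call also held it rarely, in 1.28% of cases (0.682 to 2.17). Among distal peaks weighted for strength and GC content the shares were 2.91% and 14.2%.

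Smaller differences were seen for the short ETS motif CAGGAA, in 22.1% of members against 18.2%, and for the TEAD motif GGAATG, in 12.9% against 9.95%. The homeodomain motif TAATTA was in 4.25% against 3.22%, and the AP-1 motif TGANTCA in 4.69% against 4.06%. For the GATA motif AGATAA the shares were 3.67% and 4.18%. The SOX motif ACAATG was in 6.13% against 5.95%, whereas ACAAAG was in 11.1% against 12.4%. Motifs of epithelial factors were rare in all sets. AACCGGTT, read by GRHL proteins, was in 4 members (0.116%) against 0.155%, and the TP63 motif, a pair of CATG copies 5 bases apart, in 9 (0.260%) against 0.290%. The MEF2 motif, CTA and TAG 4 bases apart, was in 1.62% against 1.96%. Motifs were searched on both strands of the 150 bp peak. A match is a description of letters and not a bound site.

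**Figure D4:**
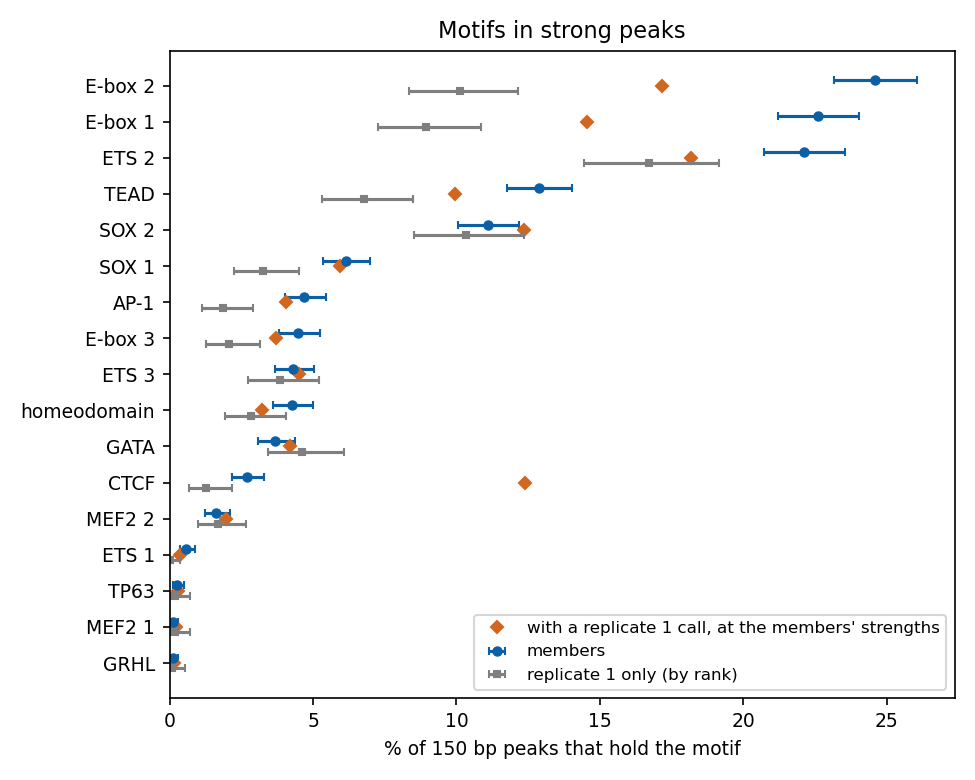
Percent of 150 bp peaks that hold each of 17 motifs, for members, for strong peaks with a replicate 1 call at the members' strengths, and for strong replicate 1 peaks without a replicate 2 call. E-box 1 is CAGCTG and E-box 2 is CATCTG; bars are exact 95% binomial intervals, and members stand highest for both E-boxes (22.6% and 24.6%) and below peaks with a call for CTCF (2.69% against 12.4%).

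The 5 lists (epithelium, endothelium, muscle, neuron and blood) hold 174 genes, of which 41 were nearest to a member, and 56 members (1.62%) were nearest to one of them. The share was 1.67% among strong peaks with a call at the members' strengths, so it is near the background. By list, the members' shares and those at their strengths were 0.260% and 0.234% for epithelium, 0.347% and 0.223% for endothelium, and 0.231% and 0.188% for blood. They were 0.376% and 0.444% for muscle, and 0.405% and 0.585% for neuron. The interval of each of the 5 members' shares included the second value. Below, each list is read against the 7.79% of all distal strong peaks that were members, which is not weighted for strength. The nearest gene need not be the gene that a site regulates.

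The epithelial list had 9 members at 8 of 34 genes. Members at promoters were at the tight junction genes Cldn6 (strength 70) and Cldn7 (62) and at the simple-epithelium keratin gene Krt18 (63). Cldn6 and Krt18 had no promoter peak in replicate 1. Distal members lay in an intron of Trp63 (62), the master regulator of stratified epithelia, and near Itgb4 (66), Epcam (60) and Wnt4 (61 and 62). Among distal strong peaks nearest to epithelial genes 6 of 66 were members (9.09%, 3.41 to 18.7).

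The endothelial list had 12 members at 10 of 33 genes. The strongest lay in an intron of Erg (90), followed by Fli1 (83 and 64), which encodes another ETS factor of vessels, and Sox18 (79). Kdr, the main VEGF receptor gene, had a member of 72 at 158 kb. The junctional cadherin gene Cdh5 had members of 70 and 60, at 30.9 and 278 kb. Single members were nearest to Pecam1 (66), Robo4 (66), Vwf (63), Gja5 (60) and, at its promoter, Prox1 (62). Of 97 distal strong peaks nearest to these genes 11 were members (11.3%, 5.80 to 19.4), an interval that includes the 7.79%.

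Muscle genes had 13 members, all distal, at 9 of 33 genes. Pax7, a gene of muscle stem cells and crest, had 3 members (61 to 68), and Cdh15 (60 and 79) and Msc (both 69) had 2 each. Those of Msc lay 179 and 187 kb from its TSS. Pax3 (75), Lbx1 (65) and the myogenic factor genes Myf6 (68), Myog (63) and Myod1 (60) had 1 each. The share of distal strong peaks was 13 of 162 (8.02%, 4.34 to 13.3).

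Neuronal genes had 14 members at 9 of 36 genes. Lmx1b had 4 (60 to 76), and Neurog1, a proneural gene of sensory ganglia, had 2 (74 and 75), one of them at its promoter. Promoter members were also at Pou4f2 (77) and Ebf3 (63). Others were nearest to Sox2 (76, at 378 kb), Lhx5 (74, at 6.55 kb), Rbfox3 (63, at 29.3 kb), Ntrk3 (61, at 745 kb) and Isl1 (60, at 205 kb). The share was 11 of 189 (5.82%, 2.94 to 10.2).

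Blood genes had 8 members at 5 of 38 genes. Irf8, a factor of the myeloid lineage, had 4 (63 to 69), 109 to 159 kb from its TSS. All 4 were classed as intronic, a class that takes in any protein-coding gene and need not mean Irf8. Runx1 (77), Laptm5 (65) and Spi1 (64) had 1 each, at 102, 38.3 and 3.70 kb. Laptm5 and Spi1 had no promoter peak in either library. The share was 8 of 75 (10.7%, 4.72 to 19.9). For comparison, genes of facial mesenchyme and neural crest had 60 members at 25 of 48 genes and a share of 57 of 641 (8.89%, 6.80 to 11.4), with 6 members at Meis1.

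**Figure D5:**
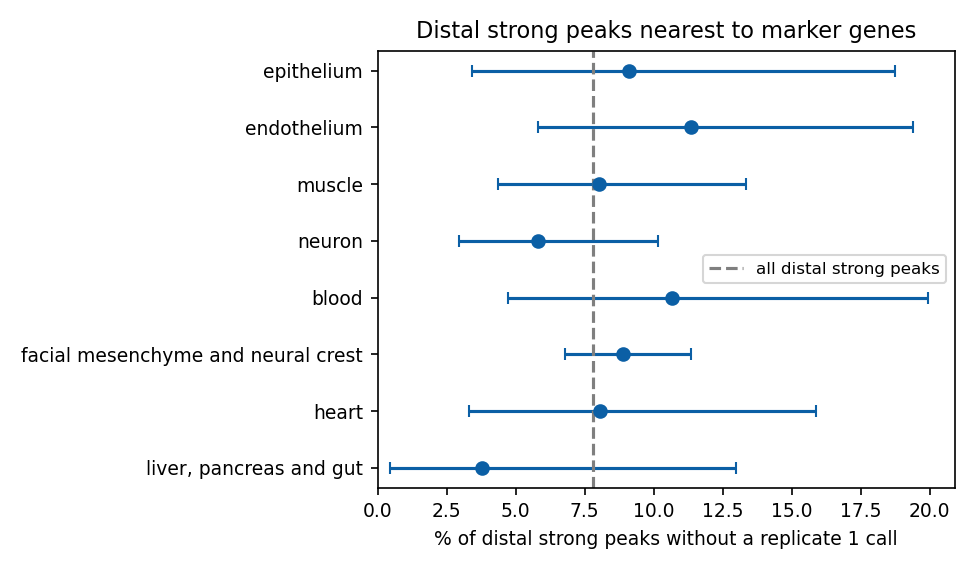
Percent of distal strong replicate 2 peaks that are members, by the marker list of the nearest gene, with exact 95% binomial intervals. The dashed line is the 7.79% of all distal strong peaks, not weighted for strength. The interval of each of the 8 lists includes it.

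Single genes differed in how many members they had, read here against the 5.38% of all strong peaks that were members. In all, 2229 genes were nearest to a member, 1578 of them to exactly 1 and 78 to 5 or more. Bach2, which encodes a transcriptional repressor of lymphoid cells, had 14 of its 40 strong peaks without a replicate 1 call. Gse1 had 12 of 72 and E130114P18Rik 12 of 24. Prdm16, a zinc finger gene needed for the palate, had 11 of 38, and Ahdc1 11 of 27. The axon guidance ligand gene Slit3 had 9 of 32 and Ephb2 9 of 23. Tns3 had 8 of 31, the secreted kinase gene Pkdcc 8 of 30 and the corepressor gene Tle3 8 of 44. These genes were chosen for their counts, which are therefore a description. Of the members, 6 of 11 at Ahdc1, 6 of 12 at Gse1, 5 of 12 at E130114P18Rik and 4 of 9 at Ephb2 lay in hotspots with a −log10 q under 5. The share over all members was 16.3%. These 4 genes had the most such members among the 10, and each of the others had fewer. All 10 genes had a promoter peak in both libraries, with strengths of 61 to 104 in replicate 1.

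Members were in part close to each other. Of 3456 members 688 (19.9%) lay within 10 kb of another one. The same share was not computed for other strong peaks, so it is a description only. The longest unbroken run among successive strong peaks was 8 members at chr4:133057396-133112445, nearest to Ahdc1 and Wasf2, followed by 7 at chr4:97577536-97587105, nearest to E130114P18Rik. Runs of 5 were nearest to Asic4, Aes, Rtl1 and Mbnl2. By chromosome, the share of strong peaks that were members ran from 4.04% on chromosome 7 to 7.47% on chromosome 4.

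Hox genes, which specify position along the body axis, were picked out after their values were seen. Of 57 strong peaks nearest to a Hox gene 14 (24.6%) were members, against 5.38% of all strong peaks. Of these members 6 were at promoters: Hoxd10 (108), Hoxd8 (92), Hoxa7 (88), Hoxd9 (87), Hoxb8 (81) and Hoxc8 (63). The hotspots of 11 of the 14 had a −log10 q under 5, the class in which 35.6% of all strong peaks were members.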

How the data were processed

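Chromatin accessibility was measured by DNase-seq in 2 libraries. Peaks and hotspots were called on each library alone on mm10, per the labels and the notes deposited with the files, and no source used here names the aligner or the caller. The authors deposited a score per 150 bp peak, called strength here, and a −log10 q per hotspot with a ceiling of 100. No replicate 2 hotspot had a −log10 q between 6 and 100. Read depth is unknown.

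Overlaps, gaps, nearest TSSs, motifs and copied words of 36 bases were computed from these files. The tools were Python 3.11.15, NumPy 2.4.6, pandas 2.3.3, SciPy 1.17.1 and numba 0.67.0. Overlaps, gaps, nearest TSSs, weights and copied words were checked on simulated data, and the motif search was not. TSSs were those of every annotated transcript of 21755 protein-coding genes in GENCODE M21 (93196 TSSs). A promoter peak had its centre within 1000 bp of a TSS. Other peaks were exonic (protein-coding transcripts), intronic (elsewhere inside any protein-coding gene) or intergenic. Peaks with a replicate 1 call were weighted to the members' strengths and, where stated, to GC classes of 5 percentage points. Intervals are at 95%.

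The members and the lists were chosen with earlier results of these data known. Named were the 10 strongest members, the 10 genes with most members and up to 8 genes per tissue list by summed strength; further endothelial, muscle and neuronal genes with a member, Hox genes and the mesenchymal genes are named beyond that rule. Some list genes with a member are counted but not reported by name here. Alternatives covered the strength threshold, the overlap rule, promoter window, TSS set, list window, motif window, hotspot confidence and chromosome X.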

Additional observations from a re-analysis of the deposited data

Results flagged for a closer look

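Chromosome X lies outside the rule. By the same criteria 55 of its 1145 strong replicate 2 peaks (4.80%, 3.64 to 6.21) had no replicate 1 peak or hotspot, against 5.38% on chromosomes 1 to 19. The interval includes the 5.38%, so the share is near that background. These peaks are counted here because the comparisons do not use this chromosome.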

How the results depend on the processing

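The number of members was set by the rule. It was 10056, 989, 236 and 6 at thresholds of 50, 70, 80 and 100, and 8035 when hotspots of replicate 1 were ignored. The promoter share of 12.6% was 11.4%, 14.96%, 19.9% and 33.3% at those thresholds, 7.55% with no replicate 1 call within 500 bp, 8.79% for members whose hotspot touched no replicate 1 call, 9.35% and 19.8% with windows of 500 and 2500 bp, 16.4% with genes of any biotype, 10.2% with protein-coding transcripts only and 8.97% with the basic annotation. The median distance of 18.5 kb was 20.2, 15.03, 12.5 and 4.64 kb at the thresholds, 21.3 kb with the 500 bp margin, 19.9 kb for hotspots without a replicate 1 call, 21.3 kb for hotspots at the q ceiling, and 40.9, 25.9 and 30.8 kb with 1 TSS per gene, protein-coding transcripts and the basic annotation. Members kept longer medians and lower promoter shares than peaks at their strengths under each of the 4 TSS sets.

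Of the members, the epithelial list took 0.101% at a threshold of 70, and the neuronal list 0.708%. At 80 the endothelial list took 0.847% and the other 4 took 0%, and at 100 each of the 5 took 0%. The thresholds of 70, 80 and 100 left 989, 236 and 6 members, so a few peaks move these shares. Within 100 kb of any list TSS, the endothelial share was 0.955% and the muscle share 0.868%. This window was not applied to peaks with a call, so these shares have no background beside them. The excess of CAGCTG (8.06 percentage points) was 9.81 over 300 bp. That of CATCTG (7.41) was 5.69 among distal peaks, 8.99 for hotspots without a replicate 1 call and 9.09 at the q ceiling. The CTCF difference of -9.71 was -12.4 among distal peaks, -11.3 among distal peaks at the same GC content and -10.4 at the q ceiling, and the CAGGAA difference of 3.95 was 5.65 over 300 bp. None of the 6 motif differences recomputed under every motif setting changed sign. Of the other 11, compared also among distal peaks, CCGGAA (4.31% against 4.50% overall) was at 4.21% against 3.47%, and ACAATG (6.13% against 5.95%) at 6.52% against 6.74%. The cause of these shifts was not tested. The distal, hotspot and added TSS settings were chosen after seeing the data. No paired analysis was possible because there is 1 group, and no replicate can be left out because the rule needs both libraries. Peak depth is unknown, so no limit of detection can be given.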

Other observations

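A CATCTG followed after 5 bases by AATTA occurred in 114 distal strong peaks of replicate 2. The median was 6 occurrences over all spacings found up to 100 bases, this one included. Of these 114 peaks 6 (5.26%) were members, against 7.79% of all distal strong peaks. This spacing was looked for after the E-box shares were seen.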
